A study of Mus musculus with 18 samples.

Results

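A set of 8 genes of fatty acid oxidation was followed through mouse kidney: Ppara, Cpt1a, Cpt2, Acadm, Acadl, Hadha, Ehhadh and Pdk4. They were taken by gene symbol from a table of 55385 genes, and all 8 members were found and passed the filter on low counts, which kept 17575 genes. PolyA RNA from whole kidney of 18 untreated mice aged 17.1 to 18 weeks was sequenced, with 3 males and 3 females in each of 3 groups of 6. The wild-type group was C57BL/6J. In Dp16 mice, which serve to model trisomy 21, the stretch of chromosome 16 between Lipi and Zbtb21 is duplicated. Dp16 2xIFNRs mice carry that duplication with the interferon receptor genes in it returned to the usual dose of 2. The labels give no strain for the 2 mutant groups and do not say which animals were littermates.

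Fatty acids enter mitochondria as carnitine esters and are then shortened in cycles of dehydrogenation, hydration, a further dehydrogenation and cleavage. Very long, branched and dicarboxylic fatty acids are shortened in peroxisomes instead. The nuclear receptor PPAR alpha, encoded by Ppara, binds fatty acids and drives many genes of both routes, and the proximal tubule of the kidney depends heavily on this fuel. Cpt1a makes the carnitine ester at the outer mitochondrial membrane, and Cpt2 reverses that step inside. Acadm and Acadl encode the medium-chain and long-chain acyl-CoA dehydrogenases. Hadha is the alpha subunit of the mitochondrial trifunctional protein, and Ehhadh is a bifunctional enzyme of peroxisomes. Pdk4 encodes a kinase that switches off pyruvate dehydrogenase and so spares glucose when fat is burnt.

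None of the members lies on the duplicated segment, which runs from 75540514 to 97962622 on chromosome 16 (GRCm38, GENCODE M21). Ehhadh is on the same chromosome but outside it, at chr16:21761287-21787807 on the minus strand. Ppara spans chr15:85734983-85802819 (plus strand), Cpt1a chr19:3322334-3385733 (plus) and Cpt2 chr4:107903981-107923610 (minus). Acadm spans chr3:153922357-153944632, Acadl chr1:66830839-66863277, Hadha chr5:30118304-30155162 and Pdk4 chr6:5483351-5496309, all 4 on the minus strand. Hadha and Hadhb, which encode the alpha and beta subunits of 1 enzyme complex, are transcribed away from each other with 85 bases between their annotated ends.

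The 3 upstream stretches that follow are printed because results below turn on these genes: Cpt1a, which moved with Ppara from library to library, Acadm, the most abundant member, and the stretch shared by Hadha and Hadhb. They come from RefSeq promoters (GRCm38.p6), stop short of annotated exons and read 5′ to 3′. The Cpt1a stretch lies inside the GENCODE span of the gene, which begins further upstream than the RefSeq start. Capitals mark AGGTCA or its reverse complement TGACCT, the half-site recognised by many nuclear receptors.
Cpt1a, chr19:3323051-3323284, plus strand: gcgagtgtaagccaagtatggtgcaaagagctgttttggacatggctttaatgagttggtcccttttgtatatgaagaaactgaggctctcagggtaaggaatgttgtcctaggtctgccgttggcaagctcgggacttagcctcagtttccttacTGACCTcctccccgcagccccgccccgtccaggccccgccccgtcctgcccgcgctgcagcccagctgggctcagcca
Acadm, chr3:153944644-153944893, minus strand: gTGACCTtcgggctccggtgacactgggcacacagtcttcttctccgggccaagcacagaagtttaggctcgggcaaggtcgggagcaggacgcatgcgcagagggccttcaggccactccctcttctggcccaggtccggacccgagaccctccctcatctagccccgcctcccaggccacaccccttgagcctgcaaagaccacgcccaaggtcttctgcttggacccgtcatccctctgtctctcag
Hadha and Hadhb, chr5:30155163-30155247, plus strand, the direction of Hadhb: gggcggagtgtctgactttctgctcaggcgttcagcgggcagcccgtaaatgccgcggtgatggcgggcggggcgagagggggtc

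A RefSeq promoter was matched for 8 of 8 members, and the 250 bases before each start were searched on both strands. AGGTCA was present in 2 of the 8, Acadm and Cpt1a, and in 14% of 32851 promoters of the same length. In Cpt1a the half-site ends 88 bases before the RefSeq start and in Acadm 243 bases before it. The direct repeat of AGGTCA with 1 base of any kind between the copies, the shape bound by PPAR alpha with its partner RXR, was in 0 of 8 members and 0.0335% of all promoters. The estrogen-related receptor motif TCAAGGTCA, which also contains AGGTCA, was in 0 of 8 members and 0.387% of all. These windows are short, and a match or its absence describes the letters only.

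The 18 libraries held 42157790 to 57814587 gene counts, and their sex-linked genes matched the labelled sex in 18 of 18. The interferon receptor genes Ifnar1, Ifnar2, Ifngr2 and Il10rb had log2 fold changes of 0.58 to 0.80 in Dp16 and of -0.01 to 0.20 in Dp16 2xIFNRs against wild-type. In Dp16 2xIFNRs only Ifnar2 of these was called, at 0.20 ± 0.05 (± SE, edgeR adjusted p = 0.0368). Kidney content was checked with marker lists. Summed RPKM (reads scaled for gene length and library size) of 20 proximal tubule markers was 22835 to 52926 per library, with the 9 males all above the 9 females. Such a sum is weighted to its most abundant genes. Gene by gene, 7 of these 20 markers were called higher and 7 lower in males, with a median log2 fold change of -0.12. That of 12 macrophage markers was 89.2 to 144.9 in wild-type, 172.3 to 232.6 in Dp16 and 159.0 to 229.1 in Dp16 2xIFNRs. In whole tissue, fewer cells of a type and less RNA per cell cannot be told apart.

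The members covered a wide range of levels. On the per-length RPKM scale Acadm was highest at 492 ± 75.8 (mean ± SD, n = 18), followed by Ehhadh at 250.3 ± 36.7, Acadl at 177.0 ± 16.1 and Cpt1a at 108.9 ± 13.9. Hadha stood at 78.0 ± 15.4, Cpt2 at 69.7 ± 6.37, Pdk4 at 20.0 ± 9.77 and the receptor gene Ppara, lowest, at 9.75 ± 3.89. The order Acadm, Ehhadh, Acadl, Cpt1a held in 18 of 18 libraries, whereas Hadha was above Cpt2 in only 9 of 18, so these neighbours did not separate. The enzymes varied little between animals. From the lowest to the highest library, counts scaled for library size with TMM factors (CPM) differed 1.43-fold for Acadl and 1.75-fold for Ehhadh, with the other enzymes between them. The regulators varied more, 3.84-fold for Pdk4 and 5.09-fold for Ppara.

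**Figure D1:**
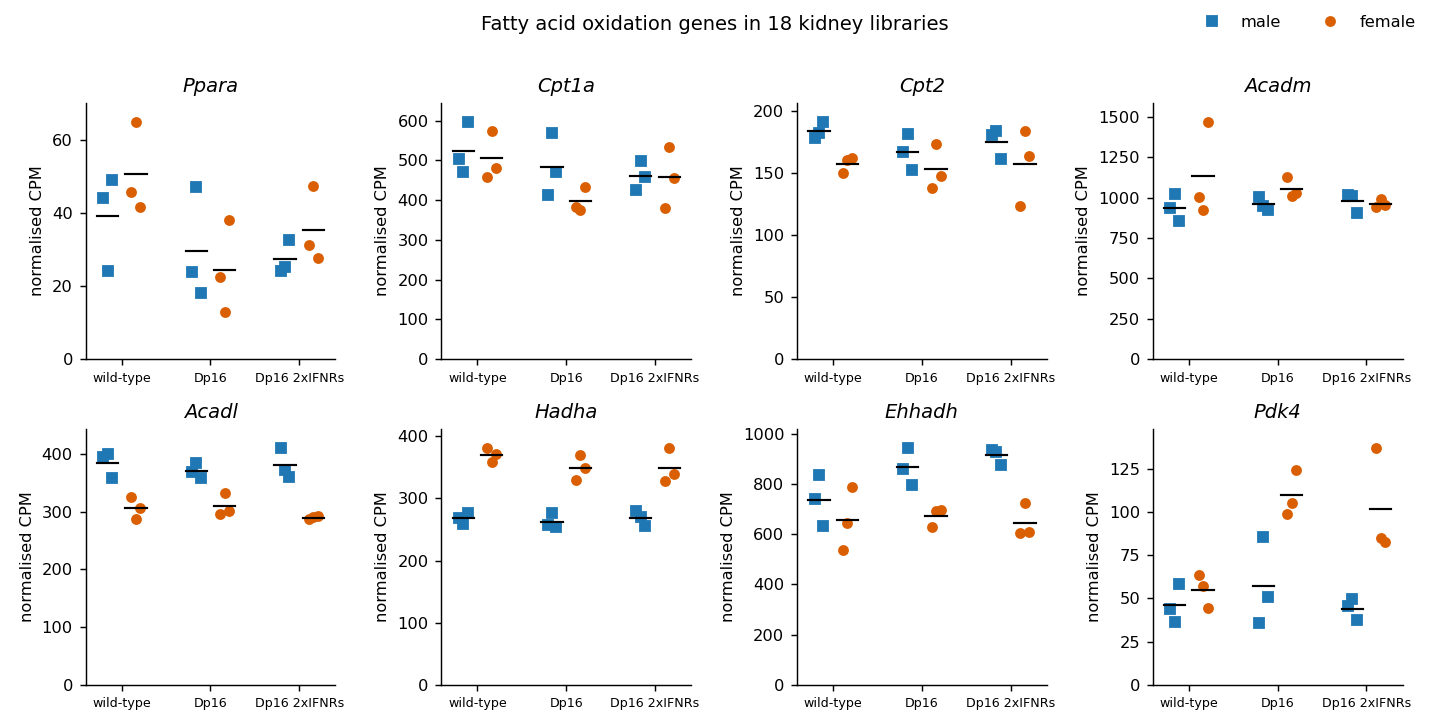
Normalised counts (CPM, y axis from 0) of the 8 genes in each library, by group (x axis), with males as squares, females as circles and the mean of each sex as a bar. Acadl and Hadha separate the sexes without overlap, the mean of Pdk4 is highest in females of the 2 mutant groups, and the enzymes differ little between genotypes.

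Whether the extra segment altered these genes was read from Dp16 against wild-type. No enzyme differed by more than 0.23 on the log2 scale, and the receptor Ppara and the kinase Pdk4 had larger but uncertain differences in opposite directions. Of the 8 members 0 passed an adjusted p of 0.05 (edgeR quasi-likelihood test, n = 6 per group), against 4.23% of all genes tested, and 3 of 8 had an unadjusted p under 0.05, against 17.1% of all genes. DESeq2 called 0 of 8, and edgeR without a filter on low counts called 2 of 8, Ppara and Pdk4. Fitting the sample number as a replicate block called 3 of 8, Ppara, Cpt1a and Pdk4, with 910 of 17575 genes called in that fit. Those numbers were not shown to pair animals. The value ranges of the 2 groups overlapped for 8 of 8 members, with 1.3% of all genes not overlapping. The median log2 fold change of the members was -0.05 and that of all genes -0.01. In simulated counts for this comparison (17575 genes), 55% of 1.5-fold and 73% of 2-fold changes were found. The changed genes were drawn at random from all genes tested. These shares are therefore not the sensitivity for the members, whose spread between animals differs from gene to gene.

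Ppara, the receptor, was at 24.0, 44.8 and 65.0 CPM in wild-type (lowest, median, highest), 12.8, 23.1 and 47.2 in Dp16 and 24.1, 29.5 and 47.4 in Dp16 2xIFNRs. The groups overlapped, and 5 of the 6 wild-type libraries were above all but the highest library of each mutant group. Its log2 fold change was -0.71 ± 0.26 in Dp16 against wild-type (± SE, 95% interval -1.26 to -0.16, edgeR adjusted p = 0.145). It was -0.52 ± 0.26 in Dp16 2xIFNRs (95% interval -1.06 to 0.03, adjusted p = 0.308). Without Dp16 replicate 5, the highest Dp16 library, the Dp16 value was -0.98 (adjusted p = 0.0215), and without a filter on low counts it was -0.72 (adjusted p = 0.0286). Leaving out Dp16 replicate 3, the lowest, gave -0.54.

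Cpt1a, which commits fatty acids to the mitochondrion, was at 459, 493 and 597 CPM in wild-type, 375, 423 and 569 in Dp16 and 381, 458 and 534 in Dp16 2xIFNRs. Of the 6 Dp16 libraries 4 lay below every wild-type library, and the other 2 were within the wild-type range. The log2 fold change was -0.23 ± 0.10 in Dp16 (95% interval -0.43 to -0.03, edgeR adjusted p = 0.214) and -0.16 ± 0.10 in Dp16 2xIFNRs (-0.37 to 0.04, adjusted p = 0.393). Fitting the sample number as a replicate block made Cpt1a a call in Dp16, but those numbers were not shown to pair animals.

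Pdk4 was at 36.1, 50.9 and 63.3 CPM in wild-type, 35.7, 92.2 and 124.1 in Dp16 and 37.4, 66.0 and 137.1 in Dp16 2xIFNRs. Of the 6 Dp16 libraries 4 were above every wild-type library, and of the other 2 one was within the wild-type range and one just below it. The log2 fold change was 0.63 ± 0.21 in Dp16 (95% interval 0.20 to 1.07, edgeR adjusted p = 0.0929) and 0.40 ± 0.21 in Dp16 2xIFNRs (-0.03 to 0.84, adjusted p = 0.32). In Dp16 it was 0.62 without a filter on low counts (adjusted p = 0.0158). It was 0.78 without wild-type replicate 4 (adjusted p = 0.04) and 0.76 without Dp16 replicate 1 (adjusted p = 0.0447), and at the other end 0.48 without Dp16 replicate 5 (adjusted p = 0.223).

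The other 5 members stayed close to wild-type. Cpt2 had log2 fold changes of -0.09 ± 0.08 in Dp16 and -0.04 ± 0.08 in Dp16 2xIFNRs, Acadm -0.04 ± 0.09 and -0.09 ± 0.09, and Acadl -0.02 ± 0.05 and -0.05 ± 0.05. Hadha had -0.06 ± 0.05 and -0.04 ± 0.05, and Ehhadh 0.13 ± 0.09 and 0.14 ± 0.09. Every 95% interval of these 10 values included 0, and the one reaching furthest from 0 ended at 0.33, for Ehhadh in Dp16 2xIFNRs. The wild-type libraries serve both comparisons, so the paired values are not independent.

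Against Dp16, the Dp16 2xIFNRs group asks what the receptor dose alters with the rest of the segment held. No member was called (0 of 8), against 0.0171% of all genes (3 genes), with 0 of 8 at an unadjusted p under 0.05 (4.71% of all genes) and 0 of 8 by DESeq2. Those 3 genes were the receptor genes Ifnar2, Ifngr2 and Il10rb, whose dose sets these groups apart. Log2 fold changes of the members ran from -0.23 ± 0.21 for Pdk4 to 0.19 ± 0.26 for Ppara, and their edgeR adjusted p was at least 0.857. The intervals of the enzymes were narrow, from -0.14 to 0.08 for Acadl and from -0.09 to 0.12 for Hadha. Those of the regulators were wide, from -0.36 to 0.74 for Ppara and from -0.66 to 0.20 for Pdk4. The ranges of the 6 libraries per group overlapped for 8 of 8 members, with 0.0797% of all genes not overlapping. Within females Acadm and Acadl (2 of 8) were lower in Dp16 2xIFNRs without overlap, against 10.4% of all genes, and within males 0 of 8, against 7.97%. For Dp16 2xIFNRs against wild-type the count was also 0 of 8, against 4.79% of all genes, with 0 of 8 at an unadjusted p under 0.05 (18.2% of all genes) and 0 of 8 by DESeq2. The median log2 fold change of the members was -0.04 there and that of all genes 0.01, and the ranges overlapped for 8 of 8 members, with 1.56% of all genes not overlapping.

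**Figure D2:**
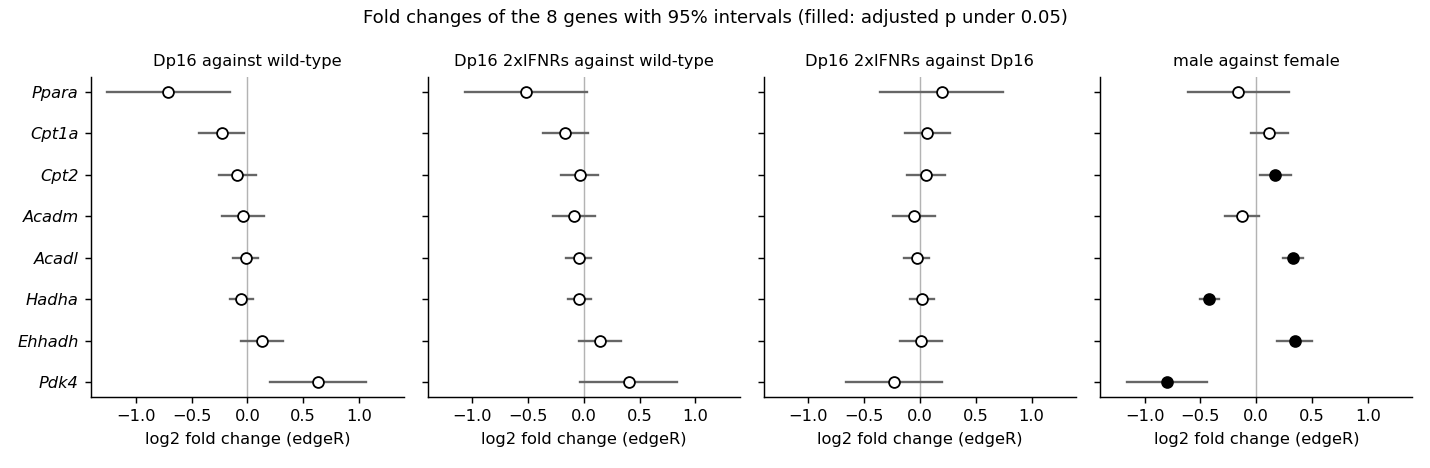
Log2 fold changes from edgeR (x axis) of the 8 genes (y axis) in 3 genotype comparisons and between the sexes, with 95% intervals as lines and filled points for an adjusted p under 0.05. No point is filled in the genotype panels, and 5 are filled in the panel of males against females, 3 above 0 and 2 below.

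More members were called between the sexes than between genotypes. Acadl, Ehhadh and Cpt2 were higher in males, Hadha and Pdk4 were lower in males, and Ppara, Cpt1a and Acadm were not called. The calls numbered 5 of 8, 3 higher and 2 lower, against 38.8% of all genes (19% higher and 19.7% lower). The members' median log2 fold change was -0.01 and that of all genes -0.03. TMM factors were 0.93 to 0.99 in males and 1.03 to 1.07 in females. Scaling by total counts alone moved the median of all genes to -0.15 and the split of calls from 3347 higher and 3466 lower to 1906 higher and 5855 lower. The directions of the 5 calls were the same under that scaling, but Acadm became a call at -0.25 (adjusted p = 0.0106) and Cpt1a turned from 0.12 to -0.01, uncalled both times. For Dp16 2xIFNRs against wild-type the same scaling moved the split of all genes from 558 higher and 283 lower to 735 and 208.

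Hadha was at 254.3 to 279.7 CPM in the 9 males and 327.3 to 381.7 in the 9 females, a log2 fold change of -0.42 ± 0.04 (edgeR adjusted p = 9.21e-08). Acadl was at 358.7 to 410.9 CPM in males and 286.7 to 332.8 in females, 0.33 ± 0.04 (edgeR adjusted p = 4.76e-06). For these 2 of 8 members the ranges of the sexes did not overlap, against 9.41% of all genes, and both kept their call in all 26 alternatives. Hadhb, the partner subunit across the printed stretch, was also lower in males, by a smaller log2 fold change of -0.22 ± 0.04 (edgeR adjusted p = 0.000409). Whether the 2 subunits differ in their response to sex was not tested.

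Ehhadh was at 633.6, 859 and 945 CPM in males (lowest, median, highest) and 539, 643 and 788 in females, with overlap through 2 of the wild-type males. Its log2 fold change was 0.34 ± 0.07 (edgeR adjusted p = 0.000957). Pdk4 was at 35.7, 45.3 and 85.5 CPM in males and 44.6, 84.8 and 137.1 in females, -0.80 ± 0.17 (edgeR adjusted p = 0.000881, called in all 26 alternatives). This value pools the genotypes, and the sexes lay closest in wild-type. Female and male means were 55.0 and 46.1 CPM in wild-type, 109.5 and 57.3 in Dp16, and 101.5 and 44.1 in Dp16 2xIFNRs. Cpt2 was at 152.6, 181.0 and 191.3 CPM in males and 123.4, 160.2 and 183.8 in females, a small log2 fold change of 0.17 ± 0.07 close to the threshold (edgeR adjusted p = 0.0448). That call was kept in 10 of 26 alternatives. The losses included scaling by total counts (0.05, adjusted p = 0.573) and the sample number as a replicate block. They also included leaving out any wild-type library, any of Dp16 replicates 1, 2, 4 and 5, or Dp16 2xIFNRs replicate 1, 2 or 3.

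Acadm was at 855 to 1023 CPM in males and 924 to 1126 in 8 of 9 females, with wild-type female replicate 6 apart at 1470. The log2 fold change between sexes was -0.13 ± 0.07 with that library (edgeR adjusted p = 0.182) and -0.05 without it.

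The interaction of sex and genotype asks whether the genotype differences were the same in males and females. It was called in 0 of 8 members for any pair of groups, against 0.0171% of all genes for Dp16 (0.0114% with a positive term) and 0.00569% for Dp16 2xIFNRs against wild-type and 0% between the mutants. By DESeq2 it was 0 of 8 each time, and at an unadjusted p under 0.05 it was 0 of 8 for Dp16 (7.85% of all genes), 1 of 8, Pdk4, for Dp16 2xIFNRs (3.53%) and 0 of 8 between the mutants (3.85%). In females Pdk4 was at 55.0 ± 9.55 CPM in wild-type (mean ± SD, n = 3), 109.5 ± 13.1 in Dp16 and 101.5 ± 30.9 in Dp16 2xIFNRs, and every mutant female was above every wild-type female. In males it was at 46.1 ± 11.4, 57.3 ± 25.5 and 44.1 ± 6.17, and the groups overlapped. The log2 difference between male and female fold changes was -0.95 ± 0.37 for Dp16 2xIFNRs (edgeR unadjusted p = 0.0192, adjusted p = 1.0) and -0.68 ± 0.37 for Dp16 (adjusted p = 0.639).

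Within females the Pdk4 log2 fold change was 0.99 ± 0.26 in Dp16 (edgeR adjusted p = 0.105) and 0.88 ± 0.26 in Dp16 2xIFNRs (adjusted p = 0.187). Within males it was 0.32 ± 0.26 and -0.06 ± 0.26. In females Ppara and Cpt1a also lay below every wild-type female in Dp16, with log2 fold changes of -1.05 ± 0.37 (adjusted p = 0.226) and -0.35 ± 0.13 (adjusted p = 0.269). Non-overlap in females was thus seen for 3 of 8 members in Dp16, against 14.9% of all genes, and for 1 of 8 in Dp16 2xIFNRs, against 15.3%. In males it was seen for 0 of 8 in Dp16, against 17.9%, and for 1 of 8 in Dp16 2xIFNRs, against 19.2%. That gene was Ehhadh, at 634 to 836 CPM in wild-type males and 876 to 937 in Dp16 2xIFNRs males (0.31 ± 0.12, adjusted p = 0.244). Within either sex 0 of 8 were called in Dp16, against 1.71% of all genes in males and 0.575% in females, and likewise in Dp16 2xIFNRs, against 2.07% and 0.324%.

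Across the 18 libraries, with sex means subtracted, the members did not move as 1 block. Of 28 pairs, Ppara and Cpt1a had the highest r (Pearson r = 0.81, Spearman rho = 0.86, permutation p = 3e-05 and 2e-05, adjusted over the pairs 0.00084 and 0.00056). The r was 0.77 in males, 0.84 in females and 0.75 without the 2 libraries farthest from the Ppara median. Cpt2 and Hadha followed (r = 0.75, rho = 0.61, permutation p = 0.00085 and 0.0166, adjusted 0.0119 and 0.147), with r = 0.61 without the 2 farthest libraries. No other pair had an adjusted permutation p for r under 0.05. Pdk4 had an r of -0.45 to -0.09 with the other 7, but its r with Cpt1a was 0.76 in the 9 males and -0.68 in the 9 females, with Hadha 0.62 and -0.57, and with Ppara 0.52 and -0.52. With group means subtracted as well, the r was 0.73 for Ppara and Cpt1a, 0.73 for Cpt2 and Hadha and 0.72 for Acadm and Ehhadh (0.57 with sex alone subtracted), so these 3 pairs were level, and Pdk4 had r of -0.50 to 0.28 with the other 7. By likeness to the mean of the 8 scaled members over the 18 libraries, the 6 closest genes outside the set were Vnn1 (r = 0.83), Naa50 (0.82), Gcnt2 (0.79), Slc22a5 (0.77), Slc25a20 (0.77) and Gopc (0.76). That mean did not stand for all members equally. Its r was 0.86 with Hadha and 0.77 with Cpt2, 0.36 to 0.56 with Cpt1a, Ehhadh, Acadl, Ppara and Acadm, and -0.08 with Pdk4. Slc22a5 is the carnitine importer of the cell membrane and Slc25a20 the carnitine carrier of the mitochondrion.

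The level of clock genes differed between libraries and moved with some members. Dbp and Arntl peak at opposite times of day, and collection times were not in the sources used here. Dbp ran from 10.3 to 260.0 CPM and Arntl from 1.00 to 24.6, and Dbp was above its median in 5 of 6 wild-type libraries and in 2 of 6 of each mutant group. With (log2 Dbp minus log2 Arntl) divided by 2 as the measure and sex means subtracted, Cpt1a had r = 0.67 and rho = 0.68 (permutation p = 0.00375 and 0.00331, adjusted over 8 members 0.013 and 0.0265). Cpt2 had r = 0.68 and rho = 0.59 (permutation p = 0.00153 and 0.0137, adjusted 0.0122 and 0.0472), and Hadha r = 0.64 and rho = 0.51 (permutation p = 0.00489 and 0.0357, adjusted 0.013 and 0.0715). Without the 2 libraries farthest from the median of the measure these r were 0.69, 0.66 and 0.62. Ppara had r = 0.49 and rho = 0.57 (permutation p = 0.0458 and 0.0177, adjusted 0.0916 and 0.0472), and the other 4 members had r between -0.15 and 0.19. By sex, Pdk4 had r = 0.61 in the 9 males and -0.65 in the 9 females, and Ppara 0.81 and 0.25. Whether the sexes differ in these r was not tested. Group means were not subtracted for these r or their permutations. The measure had a median of 2.63 in wild-type and 0.77 in each mutant group. Genotype and other differences between libraries therefore cannot be told apart in these r.

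With that measure as a covariate, chosen after the data were seen, the log2 fold change of Ppara in Dp16 against wild-type was -0.52 (edgeR adjusted p = 0.333), that of Cpt1a -0.14 and that of Pdk4 0.66 (adjusted p = 0.104). No member (0 of 8) had a slope on the measure with an adjusted p under 0.05 over all genes, against 1.52% of all genes. Unlike the r above, these slopes were not adjusted over the 8 members alone. Their unadjusted edgeR p was 0.00703 for Cpt1a and 0.00586 for Cpt2 (adjusted over all genes 0.186 and 0.166). For the other members it was at least 0.0565. Macrophage markers moved with genotype too. Of the 12, 9 rose and 0 fell in Dp16 and in Dp16 2xIFNRs, against 3.17% of all genes that rose in each. Lyz2, a lysozyme, was at 29.1 ± 6.77 CPM in wild-type, 62.6 ± 8.11 in Dp16 and 58.8 ± 11.6 in Dp16 2xIFNRs (mean ± SD, n = 6). The part of collection time or macrophage content in the members' differences was not tested beyond that covariate.

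**Figure D3:**
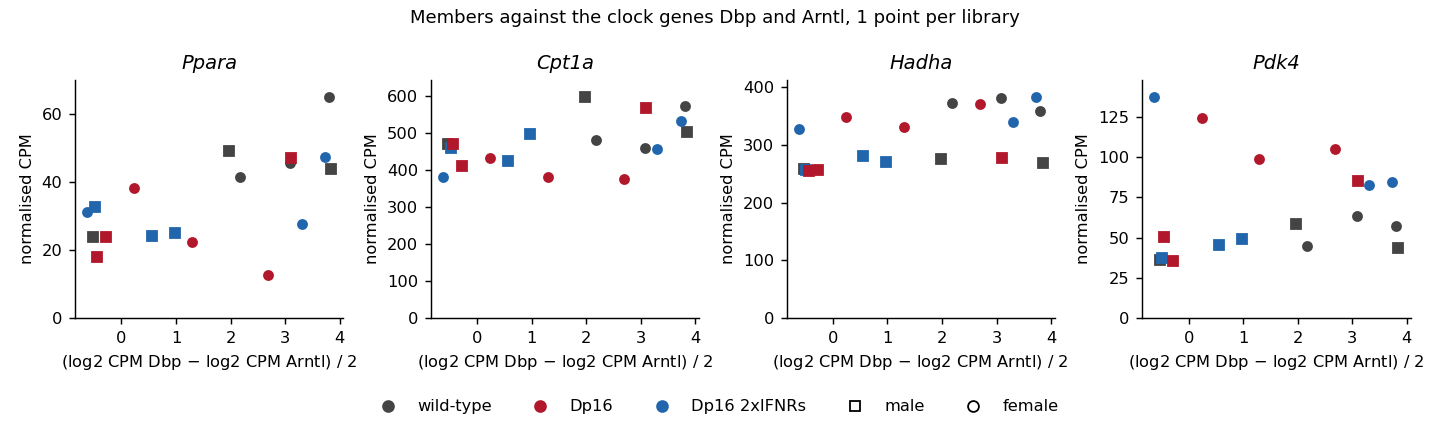
CPM of Ppara, Cpt1a, Hadha and Pdk4 (y axes from 0) in the 18 libraries against the log2 CPM of Dbp minus that of Arntl, divided by 2 (x axis), coloured by genotype with males as squares and females as circles. Cpt1a is higher to the right (r = 0.67 with sex means subtracted), Hadha splits by sex at every x value, and the 4 libraries highest in Pdk4 are mutant females.

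The other genes of mitochondrial oxidation and the carnitine shuttle were nearly level between genotypes. Of 20 genes 0 were higher and 1 lower in Dp16, against 3.17% and 1.06% of all genes, with a median log2 fold change of -0.07. In Dp16 2xIFNRs it was 0 and 1, against 3.17% and 1.61%, with a median of -0.09. The 1 gene was Acad10, an acyl-CoA dehydrogenase family member, at -0.23 ± 0.06 in Dp16 (edgeR adjusted p = 0.0422) and -0.22 ± 0.06 in Dp16 2xIFNRs (adjusted p = 0.0418). Its call was lost without any of 13 of the 18 libraries in Dp16 and any of 10 in Dp16 2xIFNRs, with adjusted p up to 0.0953 and 0.0889.

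In peroxisomal oxidation 3 of 24 genes fell and 0 rose in each mutant group, against 1.06% of all genes lower in Dp16 and 1.61% in Dp16 2xIFNRs, with medians of -0.08 in Dp16 and -0.04 in Dp16 2xIFNRs. Acox3, a peroxisomal acyl-CoA oxidase, was at 389 ± 38.4 CPM in wild-type males (mean ± SD, n = 3), 265.0 ± 31.4 in Dp16 males and 292.4 ± 14.2 in Dp16 2xIFNRs males. In females it was at 126.9 ± 10.1, 95.8 ± 5.83 and 102.6 ± 10.6, so within each sex wild-type was above both mutant groups. Its log2 fold change was -0.48 ± 0.07 in Dp16 (edgeR adjusted p = 0.000518) and -0.36 ± 0.07 in Dp16 2xIFNRs (adjusted p = 0.00556), and no left-out library ended either call. Without sex as a covariate both were lost (adjusted p = 0.793 and 0.815), and the gene differed 1.53 ± 0.06 between the sexes.

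Acot3, an acyl-CoA thioesterase, was at 67.8 ± 10.9 CPM in wild-type females, 38.8 ± 2.06 in Dp16 females and 47.7 ± 10.4 in Dp16 2xIFNRs females (mean ± SD, n = 3), and at 9.01 to 11.7 on average in males. Its log2 fold change was -0.54 ± 0.12 in Dp16 (edgeR adjusted p = 0.0101) and -0.45 ± 0.11 in Dp16 2xIFNRs (adjusted p = 0.0288). It sits among closely similar thioesterase genes, so the split of reads between them is uncertain. The second call was lost when wild-type replicate 5 or 6, or any of replicates 1, 2 and 3 of Dp16 2xIFNRs, was left out (adjusted p up to 0.07). Acot12, another thioesterase, had -0.25 ± 0.07 in Dp16 (adjusted p = 0.039) and -0.26 ± 0.07 in Dp16 2xIFNRs (adjusted p = 0.0308), and lost these calls without any of 9 and of 5 libraries (adjusted p up to 0.0957 and 0.0783).

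Ketogenesis and ketone use had 0 calls of 7 genes in both mutant groups, against 4.23% of all genes in Dp16 and 4.79% in Dp16 2xIFNRs, with medians of -0.03 and -0.10.

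Among 19 tested of 20 other PPAR alpha targets (Fgf21 did not pass the filter) 2 rose and 0 fell in each mutant group, with medians of 0.09 and 0.07. The share of all genes that rose was 3.17% in each mutant group, and the share that fell was 1.06% in Dp16 and 1.61% in Dp16 2xIFNRs. Angptl4, a secreted inhibitor of lipoprotein lipase, was at 25.2, 46.7 and 63.9 CPM in wild-type and 57.3, 73.0 and 146.0 in Dp16, a log2 fold change of 0.94 ± 0.25 (edgeR adjusted p = 0.0341). The call was lost without wild-type replicate 2, 3, 4 or 6 or Dp16 replicate 1, 3 or 5 (adjusted p up to 0.083, lowest fold change 0.66). Aqp7, a glycerol channel, had 0.29 ± 0.08 in Dp16 (adjusted p = 0.0378) and 0.28 ± 0.08 in Dp16 2xIFNRs (adjusted p = 0.0477), lost without any of 10 and of 15 libraries (adjusted p up to 0.0974 and 0.12). Cyp4a12b, an omega-hydroxylase with a near-identical copy in Cyp4a12a, had 0.65 ± 0.15 in Dp16 2xIFNRs (adjusted p = 0.0134).

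Nuclear receptors and coregulators had 0 calls of 18 genes in Dp16 (median -0.14), against 4.23% of all genes. In Dp16 2xIFNRs they had 1 rise and 1 fall (median -0.07), against 3.17% and 1.61% of all genes. Nrip1, a corepressor of fatty acid oxidation genes and the 1 listed gene on the duplicated segment (chr16:76287400-76373827, minus strand), was at 31.2, 40.8 and 51.7 CPM in wild-type, 39.3, 46.0 and 63.1 in Dp16 and 45.1, 57.0 and 71.2 in Dp16 2xIFNRs. Its log2 fold change was 0.24 ± 0.13 in Dp16 (edgeR adjusted p = 0.38) and 0.53 ± 0.13 in Dp16 2xIFNRs (adjusted p = 0.0239). Between the mutant groups it was 0.29 ± 0.13 (adjusted p = 0.85), so they were not shown to differ. Sirt3, a mitochondrial deacetylase, had -0.33 ± 0.09 in Dp16 2xIFNRs (adjusted p = 0.0295). The Nrip1 call was lost when wild-type replicate 1 or 2, or any of replicates 2, 4 and 6 of Dp16 2xIFNRs, was left out (adjusted p up to 0.0655). That of Sirt3 depended on wild-type replicates 1 and 2 and on replicates 1, 2, 5 and 6 of Dp16 2xIFNRs, any of which ended it when left out (adjusted p up to 0.0809).

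Of 11 genes of the pyruvate dehydrogenase complex and its regulators, the targets and relatives of Pdk4, 0 rose and 1 fell in each mutant group (medians -0.08 and -0.08). Among all genes 3.17% rose in each mutant group, and 1.06% fell in Dp16 and 1.61% in Dp16 2xIFNRs. Pdp2, a phosphatase that switches the complex on, had -0.45 ± 0.11 in Dp16 (edgeR adjusted p = 0.0214), lost without wild-type replicate 4 or 6 (adjusted p up to 0.0544). Pdk2, a second kinase of the complex, had -0.29 ± 0.07 in Dp16 2xIFNRs (adjusted p = 0.0248), lost without wild-type replicate 2 or Dp16 2xIFNRs replicate 1, 2 or 6 (adjusted p up to 0.0709). Between the mutant groups no gene of this list was called, against 0.0171% of all genes. The same held for the other PPAR alpha targets and for the receptors and coregulators. A call in a single mutant group in these lists therefore does not show that the mutant groups differ. The 11 genes of fatty acid synthesis and malonyl-CoA, the inhibitor of Cpt1a, had 0 calls in both groups (medians 0.00 and 0.03). The most abundant of them by average CPM was Fasn, fatty acid synthase, with 0.07 ± 0.25 and 0.03 ± 0.25.

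Sex differences around the members went both ways, and the counts are to be read against 19% of all genes higher and 19.7% lower in males. In peroxisomal oxidation 12 of 24 genes were higher and 5 lower in males. The largest by p were Amacr at 1.93 ± 0.06, Acox3, Crot, the peroxisomal carnitine octanoyltransferase, at 1.39 ± 0.06 and Acot3 at -2.31 ± 0.10. In mitochondrial oxidation 8 of 20 were higher and 4 lower. They included Acsl1, which activates long-chain fatty acids, at -1.06 ± 0.07, Acads, the short-chain dehydrogenase, at 0.71 ± 0.05, Etfdh at 0.32 ± 0.04 and Hadh at 0.38 ± 0.05. In ketone metabolism 4 of 7 were higher, with Acat1 at 0.85 ± 0.05, Aacs at 0.85 ± 0.10 and Bdh2 at 0.41 ± 0.06, and 1 was lower. Each gene named here had an edgeR adjusted p of at most 4.34e-05.

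Among 19 PPAR alpha targets 4 were higher in males and 8 lower. Cd36, a fatty acid uptake receptor, was at 605 to 831 CPM in males and 199 to 253 in females (1.74 ± 0.07). Me1, the cytosolic malic enzyme, had 1.12 ± 0.05, Cyp4a12a 5.63 ± 0.26 and Cyp4a12b 2.56 ± 0.13. Of the receptors and coregulators 5 of 18 were higher and 2 lower, with Rxra, the partner of PPAR alpha, at 0.46 ± 0.05 and the coactivator Ppargc1a at -0.29 ± 0.08. Around pyruvate dehydrogenase 7 of 11 genes were higher and 1 lower, led by Pdk3 at 0.49 ± 0.05, Dld at 0.23 ± 0.04, Pdhx at 0.30 ± 0.05 and Pdk1 at -0.41 ± 0.08. Of the synthesis genes 2 of 11 were higher and 2 lower: Mlycd, which breaks down malonyl-CoA, at 0.48 ± 0.06, Prkaa2 at 0.44 ± 0.06, the elongase Elovl6 at -1.92 ± 0.13 and the desaturase Scd1 at -1.42 ± 0.22. List medians between the sexes were 0.15 (peroxisomal), 0.04 (mitochondrial), 0.21 (ketone), -0.31 (PPAR alpha targets), 0.07 (receptors), 0.16 (pyruvate dehydrogenase) and -0.06 (synthesis).

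**Figure D4:**
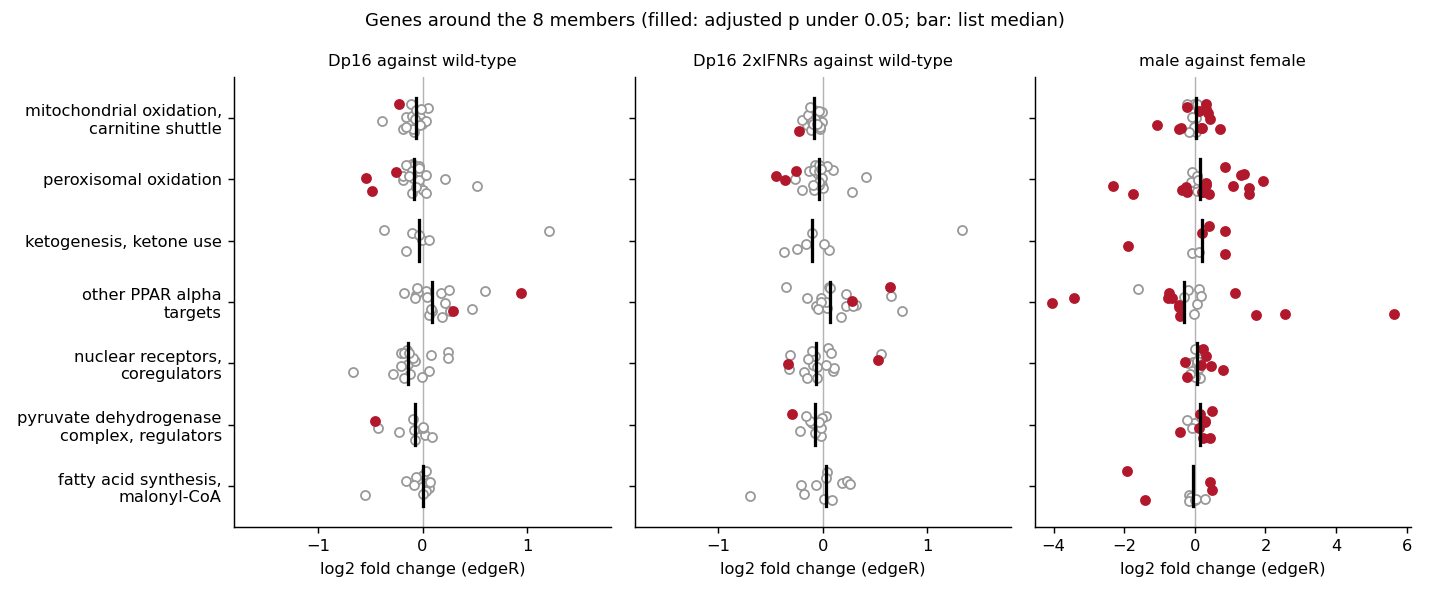
Log2 fold changes (x axis, wider in the third panel) of the tested genes of 7 lists around the members (y axis), with filled points for an edgeR adjusted p under 0.05 and a bar at each list's median. In the genotype panels the medians lie between -0.14 and 0.09 with few filled points, and in the panel of males against females filled points stand on both sides of 0 in every list.

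Markers of the proximal tubule, where most of these enzymes are made, also differed. Of 20 markers 1 rose and 3 fell in Dp16, and 0 rose and 4 fell in Dp16 2xIFNRs, with medians of -0.11 and -0.08, among them the organic anion transporter Slc22a8 at -0.42 ± 0.09 and -0.43 ± 0.09. Of all genes 3.17% rose in each mutant group, and 1.06% fell in Dp16 and 1.61% in Dp16 2xIFNRs. Between the sexes 7 were higher and 7 lower in males, where 19% of all genes were higher and 19.7% lower. Of 13 distal nephron markers 0 were higher and 8 lower in males (median -0.27). Summed RPKM of 10 fat markers was 151.8 to 449.7 in wild-type, 273.9 to 520.7 in Dp16 and 182.4 to 400.9 in Dp16 2xIFNRs. Of these 10, 1 rose in Dp16, Adipoq (0.60 ± 0.16, edgeR adjusted p = 0.0438, lost without any of 13 libraries), and 2 fell in Dp16 2xIFNRs. Those were the brown fat genes Cidea (-1.53 ± 0.34, adjusted p = 0.0116, kept when any 1 library was left out) and Ucp1 (-2.26 ± 0.58, adjusted p = 0.0291, lost without any of 6 libraries). Adrenal markers summed to 0.19 to 33.0 RPKM in wild-type, 0.16 to 4.18 in Dp16 and 0.12 to 0.34 in Dp16 2xIFNRs, where Star fell by 3.94 (adjusted p = 0.044, lost without any of 11 libraries). Skeletal muscle markers summed to at most 3.14 RPKM in any library. The part of tissue content in the members' values was not tested.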

How the data were processed

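PolyA RNA of whole kidney was sequenced from 18 mice. The submitters' processing notes name HISAT2 2.1.0, HTSeq 0.6.1, SAMtools 1.5, FastQC 0.11.5 and bcl2fastq, and the build GRCm38. The libraries were strand-specific per the labels' protocols, and the strand setting of counting is not given in the sources used here. The authors deposited raw counts per gene and RPKM values. RPKM equalled counts over total counts and a fixed gene length within 0.1% in 13814 of 13814 genes checked.

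Counts were tested with edgeR 4.0.16 (R 4.3.3, TMM, quasi-likelihood, group and sex as terms, all 18 libraries in 1 fit, minimum count 10 and minimum total 15). Two-sided p-values were Benjamini-Hochberg adjusted over 17575 genes (threshold 0.05). The SE is the fold change divided by the square root of F and is approximate. Interactions used product terms. Libraries were taken as separate animals, so p-values measure the spread between these samples only. Permutations (100000) were within sex. Simulated counts served to test the steps.

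The members and lists were chosen with earlier results of these data known. Named list genes were up to 4 called genes of smallest p per comparison, or the most abundant gene where none was called. Alternatives were RLE factors, other filters, no sex term, age, the sample number as block, DESeq2 1.42.0, 2 groups alone, the last description number as random block, leaving out each library, and limma-trend 3.58.1 on log2(RPKM + 0.1). Total-count scaling, a clock covariate and fits by sex were added after seeing the data. Results for some listed genes are not reported here.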

Additional observations from a re-analysis of the deposited data

Results flagged for a closer look

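Within the 24 sets of 6 libraries (8 genes in 3 groups), a library stood apart from the rest of its group in 3, by a gap to its nearest neighbour above Dixon's 95% critical share of the group's range. For 6 independent values from a single normal distribution, chance gives about 1 in 20 such sets. Each set here mixed 3 males and 3 females, and the 24 sets came from the same 18 libraries. That rate is therefore only a rough guide. Acadm was at 1470 CPM in wild-type replicate 6, a female, with the other 5 wild-type libraries at 855 to 1023. Ppara was at 47.4 CPM in Dp16 2xIFNRs replicate 4, a female, with the other 5 at 24.1 to 32.6. Cpt2 was at 123.4 CPM in Dp16 2xIFNRs replicate 2, a female and the lowest of its group, with the other 5 at 161.4 to 183.8. Leaving out any of these libraries gave no genotype call for these 3 genes.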

How the results depend on the processing

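Of the 8 members, the count called in Dp16 against wild-type was 0 as reported, 2 without a filter on low counts (Ppara and Pdk4) and 0 to 1 when each library was left out in turn. Fitting the sample number as a replicate block gave 3 (Ppara, Cpt1a and Pdk4). In that fit Ehhadh lost its call between the sexes (0.22, adjusted p = 0.0727), as did Cpt2 (0.10), and Cpt1a gained one (0.19, adjusted p = 0.0312). Calls between the sexes over all genes went from 6813 to 5508 in it. Libraries numbered 1 were all male and those numbered 2 all female, so the block takes up part of the sex contrast. The numbers were not shown to pair animals. Same-numbered libraries of different groups had correlations of -0.36 to 0.36 (median 0.10), with 9 of 18 above 0.1. Differently numbered libraries of different groups had -0.49 to 0.46 (median -0.01), with 27 of 90 above 0.1. Whether the 2 kinds of pair differ was not tested. The other counts of members were 0, 0, 5 and 0 as reported and moved by no more than 1.5 times under any alternative run. No member called in the reported fit changed direction. Members with small fold changes by genotype, such as Acadm and Acadl, changed sign under some settings without a call. Counts over all genes moved more. Genes called in Dp16 numbered 744, against 190 without the sex term, 453 from the 2 groups alone, 1236 by DESeq2 and 429 to 815 with a library left out. In Dp16 2xIFNRs they numbered 841, against 234 without the sex term, 1287 by DESeq2 and 526 to 920 with a library left out. Interaction calls (3, 1 and 0) rose to 55, 61 and 12 without a filter on low counts, and to 32, 23 and 1 by DESeq2. The cause was not tested. The number of animals, 6 per group, limits the regulators most, since their spread between animals was widest.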

Other observations

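The gene whose log2 CPM followed Ppara most closely over the 18 libraries, with sex means subtracted, was Kansl3 (r = 0.96), then Arl5a (r = 0.94) and Pdpr (r = 0.91). All 3 were named after their values were seen. Pck1, the gluconeogenic enzyme in the list of fasting response genes, fell in both mutant groups, with log2 fold changes of -0.84 ± 0.21 in Dp16 (edgeR adjusted p = 0.0258, n = 6 per group) and -1.29 ± 0.21 in Dp16 2xIFNRs (adjusted p = 0.00139). The Dp16 call was lost without wild-type replicate 1 or 4 or Dp16 replicate 1, 3 or 6 (adjusted p up to 0.077) and with the clock covariate. Of the 10 fasting response genes it was the 1 call in Dp16, and Txnip, which rose by 0.34 ± 0.09 (adjusted p = 0.0444), was the other call in Dp16 2xIFNRs. Calls over all genes were 4.23% in Dp16 and 4.79% in Dp16 2xIFNRs. That Txnip call was lost without any of 14 of the 18 libraries. Among 15 clock and related genes 1 fell in Dp16, Hlf at -0.76 ± 0.19 (adjusted p = 0.0293, lost without any of 7 of the 18 libraries, adjusted p up to 0.075), and 0 were called in Dp16 2xIFNRs.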
